A study of Mus musculus with 3 samples.

Results

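The galectin genes of mouse bone marrow-derived dendritic cells were followed here in 3 messenger RNA libraries. The 6 genes were taken by symbol from the deposited table: Lgals1, Lgals3, Lgals4, Lgals8 and Lgals9, which encode galectins, and Lgals3bp, which encodes a glycoprotein that galectins bind. They are 6 of 34590 symbols, each with 1 row, and all 6 averaged at least 1 unit over the libraries. The cells came from the marrow of mouse femurs and tibias and were grown with granulocyte-macrophage colony-stimulating factor, and the non-adherent cells were taken on day 6. They then spent 48 h with recombinant articulatin B chain (rATB) at 800 ng/ml (rATB cells), in buffer (buffer cells), or without addition (untreated cells, the control). Buffer cells carry a dose of 1 ng/ml in their label, which names no agent for it. Each group was 1 library, so no difference below has a replicate check and no test of the treatment was possible. The sources used here do not give the strain, sex or age of the mice.

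Galectins are small lectins that bind beta-galactose on the glycans of other proteins and lipids, outside the cell, in the cytosol and on damaged vesicles. Galectin-1 is a prototype member with a single carbohydrate recognition domain, galectin-3 joins such a domain to a long tail that lets it form clusters, and galectins 4, 8 and 9 carry a pair of domains in tandem. In macrophages and dendritic cells galectin-3, long known as the antigen Mac-2, is a classical surface and cytosolic marker, and galectin-9 is a ligand of the inhibitory receptor Tim-3. Articulatin is a ribosome-inactivating protein of mistletoe, and the B chain of such toxins is itself a galactose-binding lectin.

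Levels are in units: reads with the authors' scaling kept, per 1000000 reads of the control total. The libraries held 15203139 reads in rATB cells, 16105080 in buffer cells and 17776492 in untreated cells, and 1 unit corresponded to 15.7 to 17.8 reads. A gene without a read could be present at up to 0.191 units in the rATB library, 0.176 in the buffer library and 0.169 in untreated cells, the level of 3 reads. Intervals are exact 95% intervals for counting error alone and do not cover the spread between cultures. Of 10 dendritic cell markers, 10 averaged at least 1 unit, among them Itgax (CD11c) at 981 units in rATB cells, 1213 in buffer cells and 1199.96 in untreated cells, and Zbtb46 at 38.8, 38.1 and 35.1. These markers differed between libraries in both directions, with 6 highest and 4 lowest in rATB cells, beside 33.2% and 44.1% of all genes. Cd86, a co-stimulatory ligand, stood at 374 units in rATB cells, 192 in buffer cells and 183 in untreated cells, and Ccr7, a homing receptor of mature dendritic cells, at 1252, 723 and 621. H2-Ab1, an MHC class II chain, stood at 543, 811 and 1031 units in the same libraries. The part of these differences in the galectin levels was not tested. Macrophage markers were present as well, 9 of 10 past that level, while Cd3e, Trac, Ms4a1, Pax5, Krt8, Krt18 and Col1a2 had 0 reads in all 3 libraries. Other markers of T and NK cells (Klrb1c and Cd2), B cells (Cd22), epithelium (Cdh1) and stroma (Pdgfrb) did pass that level. The highest of these was Cd22, at 62.3 units in rATB cells, 50.0 in buffer cells and 56.9 in untreated cells.

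None of the 6 galectin genes differed by the 2-fold rule, which asks for log2(value + 1) to differ by 1 or more, in any pair of libraries. That rule was met, in either direction, by 1.57% of the 12559 genes past the filter for rATB against buffer, 1.83% for rATB against control and 0.0557% for buffer against control. With a lower rule of 0.5 Lgals3bp alone passed, against buffer, where 9.18% of all genes did, and 0 of the 6 passed for rATB against control or buffer against control, where 9.76% and 2.07% of all genes did. Within that range the family split. Lgals3bp, Lgals9 and Lgals8 were highest in the rATB library, Lgals3 and Lgals1 were lowest there, and Lgals4 was too thinly counted to be placed. The 6 differences of rATB from buffer had a median of 0.22, beside -0.0024 over all genes, and those from the control had a median of 0.06, beside -0.06. Without Lgals3bp, which has no galectin domain, the median against the control was 0.01. For buffer against control the median was -0.14, beside -0.05 over all genes.

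**Figure D1:**
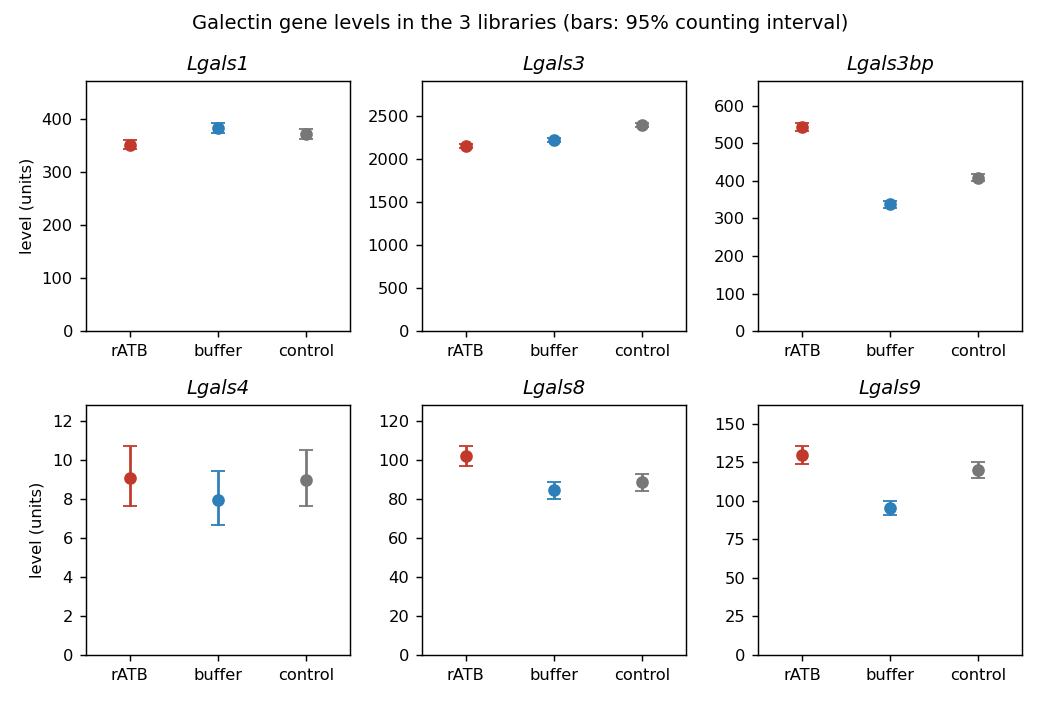
Level of each galectin gene in units (vertical axis, from 0, on a scale of its own for each gene) in the rATB, buffer and control libraries (horizontal axis), with points for the single library of each group and bars for the exact 95% counting interval. Lgals3bp stands at 543 units in rATB cells, 338 in buffer cells and 409 in untreated cells, while Lgals3 lies between 2146 and 2398 units in all 3.

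Galectin-3 made up most of the family's reads. Lgals3 (ENSMUSG00000050335) stood at 2146 units in rATB cells, 2217 in buffer cells and 2398 in untreated cells, from 33764, 37858 and 42626 reads. It took 0.222% of all reads in rATB cells (interval 0.22 to 0.224), 0.235% in buffer cells (interval 0.233 to 0.237) and 0.240% in untreated cells (interval 0.238 to 0.242). The control was the highest and the rATB library the lowest, and the steps were small. The ratio of rATB to buffer was 0.968 (interval 0.954 to 0.982), that of rATB to control 0.895 (interval 0.882 to 0.908) and that of buffer to control 0.924 (interval 0.912 to 0.937). As deposited, buffer lay further from the control than rATB lay from buffer, but with library totals these ratios were 0.980 for buffer to control and 0.945 for rATB to buffer. On the log2 scale the difference of rATB from the control was -0.16, a size reached by 42.2% of the 4125 genes that averaged at least 50 units. Summed over the macrophage and monocyte markers, levels were 4374 units in rATB cells, 4616 in buffer cells and 5900 in untreated cells, in the same order as Lgals3. None of the 9 measured markers was highest in rATB cells and 5 were lowest there, beside 33.2% and 44.1% of all genes. These markers did not all follow the sum. The complement gene C1qa stood at 134 units in rATB cells, 258 in buffer cells and 386 in untreated cells. Cd68, Fcgr1 and Cd14 were instead lowest in buffer, and their ratios of rATB to buffer were 1.27 (interval 1.23 to 1.31), 1.135 (interval 1.06 to 1.22) and 1.12 (interval 1.09 to 1.16). The part of these cells in the level of Lgals3 was not tested. In a bulk sample, fewer cells of a type and less RNA per cell cannot be told apart.

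Galectin-1, which cross-links glycoproteins such as CD45 and CD43 on leukocytes, was close to even. Lgals1 (ENSMUSG00000068220) stood at 352 units in rATB cells, 383 in buffer cells and 371 in untreated cells, from 5532, 6546 and 6595 reads. The rATB library was the lowest, and the ratio to buffer was 0.917 (interval 0.885 to 0.951). Against the control the ratio was 0.948 (interval 0.914 to 0.982). This step depended on the scaling: with library totals in place of the deposited factors it was 0.981 (interval 0.946 to 1.02), which includes 1. The buffer to control ratio was 1.03 (interval 0.998 to 1.07) as deposited and 1.096 (interval 1.06 to 1.13) with library totals.

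Per length of gene, the order of the family was the same in every library. In units per kilobase of annotated exon, Lgals3 was at 1155 in rATB cells, 1193 in buffer cells and 1291 in untreated cells. Lgals1 followed at 389, 424 and 411 units per kilobase, and Lgals3bp at 191, 119 and 144. The tandem-repeat galectins were lower, Lgals9 at 60.6, 44.5 and 55.99 and Lgals8 at 27.6, 22.9 and 24.0 units per kilobase. Lgals4 came last at 3.93, 3.44 and 3.89. Neighbours in this order differed by more than their counting intervals. Exon lengths were those of GENCODE M21 and may differ from the annotation the authors counted on, so these ranks are approximate.

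The largest difference in the family was that of Lgals3bp, the secreted scavenger-receptor-like glycoprotein also called Mac-2 binding protein. Lgals3bp (ENSMUSG00000033880) stood at 543 units in rATB cells, 338 in buffer cells and 409 in untreated cells, from 8547, 5769 and 7268 reads. The rATB library was the highest and buffer the lowest. The rATB level was 1.61 times the buffer level (interval 1.56 to 1.66) and 1.33 times the control level (interval 1.29 to 1.37), while buffer stood at 0.826 times the control (interval 0.798 to 0.855). The difference of 0.68 from buffer on the log2(value + 1) scale was reached, in either direction, by 2.4% of the 4125 genes averaging at least 50 units. Between buffer and control 0.097% of these genes differed as much. The difference of 0.41 from the control was reached by 10.4% of the same genes. The size of the difference thus depended on which of the other libraries was set beside rATB.

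Galectin-9, a ligand of Tim-3 on T cells and myeloid cells, showed the same order with smaller steps. Lgals9 (ENSMUSG00000001123) stood at 129 units in rATB cells, 95.1 in buffer cells and 120 in untreated cells, from 2036, 1625 and 2127 reads. The rATB level was 1.36 times that of buffer (interval 1.27 to 1.45) but 1.08 times that of the control (interval 1.02 to 1.15). Buffer stood at 0.795 times the control (interval 0.745 to 0.849), so most of the gap between rATB and buffer matched a gap of buffer below untreated cells. A difference as large as that of Lgals9 between buffer and control, -0.33, was seen in 2.57% of genes averaging at least 50 units in that comparison.

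Galectin-8, which binds glycans exposed on broken endosomes and recruits the autophagy machinery, was also highest in rATB cells. Lgals8 (ENSMUSG00000057554) stood at 102 units in rATB cells, 84.4 in buffer cells and 88.4 in untreated cells, from 1602, 1441 and 1572 reads. The ratio of rATB was 1.21 to buffer (interval 1.12 to 1.30) and 1.15 to the control (interval 1.07 to 1.24). Buffer and control did not differ beyond counting error, at a ratio of 0.954 (interval 0.888 to 1.03), and with library totals the ratio was 1.01. For Lgals8 the buffer and control libraries thus lay together and the rATB library above them. Its exons overlap those of Heatr1 on the opposite strand over 155 bases, 4.2% of their length, and the library kit does not mark strand. Heatr1 was at 51.1 units in rATB cells, 48.7 in buffer cells and 48.8 in untreated cells.

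The start-site windows of the members that were highest in rATB cells are given next, since Lgals3bp and Lgals9 are known as interferon-inducible genes. RefSeq windows on GRCm38.p6, with 250 bases before and 50 after the start site, were found for 5 of the 6 genes, all but Lgals1. Capitals mark the IRF core AANNGAAA, in which N is any base, and the core of the interferon-stimulated response element, GAAA repeated after any 2 bases, on either strand. Every match to the repeat holds a match to the IRF core, and the IRF core was added after the windows had been read.
Lgals3bp (chr11:118401910-118402209, minus strand): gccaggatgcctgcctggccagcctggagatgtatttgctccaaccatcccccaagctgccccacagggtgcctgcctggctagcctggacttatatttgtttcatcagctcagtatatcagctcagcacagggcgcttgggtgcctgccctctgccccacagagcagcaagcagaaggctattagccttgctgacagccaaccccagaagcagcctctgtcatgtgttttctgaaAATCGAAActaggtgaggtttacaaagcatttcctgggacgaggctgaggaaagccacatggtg
Lgals9 (chr11:78984875-78985174, minus strand): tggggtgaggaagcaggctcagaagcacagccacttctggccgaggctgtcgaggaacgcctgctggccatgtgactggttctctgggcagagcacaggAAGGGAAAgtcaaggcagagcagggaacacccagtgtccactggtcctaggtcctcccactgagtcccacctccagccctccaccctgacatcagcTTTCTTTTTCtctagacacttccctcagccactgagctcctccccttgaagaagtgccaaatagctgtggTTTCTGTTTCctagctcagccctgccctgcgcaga
Lgals8 (chr13:12461689-12461988, minus strand): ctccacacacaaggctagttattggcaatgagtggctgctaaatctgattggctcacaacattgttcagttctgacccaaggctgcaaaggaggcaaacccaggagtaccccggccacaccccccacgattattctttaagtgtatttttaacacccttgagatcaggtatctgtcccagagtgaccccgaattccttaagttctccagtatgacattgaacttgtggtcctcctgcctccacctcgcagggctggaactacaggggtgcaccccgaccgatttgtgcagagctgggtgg
The Lgals9 window held 2 GAAA repeats, on the strand opposite to the gene, with first bases at -55 and 16 from the start site, and a further IRF core at -151. The Lgals3bp window held 1 IRF core, at -14, and the Lgals8 window held neither motif. The windows of Lgals3 and Lgals4, not printed here, held neither motif as well. Of the 5 windows found, 1 thus held the GAAA repeat and 2 held the IRF core. So few windows cannot show whether the motifs go with the rATB levels. Of 32851 promoter windows in the table, 3.44% held the GAAA repeat and 23.9% held AANNGAAA. No member window held TTCNNNGAA (the GAS motif, 8.3% of windows), TGANTCA (AP-1, 7.81%) or TTNNGCAA (C/EBP, 10.8%), and GAGGAAG (PU.1, 13.6%) was found in those of Lgals4 and Lgals9. A match is a run of letters and does not show that a factor binds there.

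Of 15 interferon-induced genes listed and measured, 5 were highest and 7 lowest in rATB cells, beside 33.2% and 44.1% of all genes, so the list divided much as all genes did. Beyond counting error against both other libraries 3 were higher and 4 lower, beside 11.4% and 15.4% of all genes. The median difference was -0.04 from buffer and -0.06 from the control. Irf7, a transcription factor of the interferon response, stood at 27.6 units in rATB cells, 13.5 in buffer cells and 17.3 in untreated cells, the order seen for Lgals3bp and Lgals9. A link of Irf7 to the galectin levels was not tested. Bst2, an antiviral membrane tether, was at 159 units in rATB cells, 129 in buffer cells and 111 in untreated cells. Ifit2 and Ifi44, further antiviral genes, were lowest in rATB cells, at 3.69 and 9.02 units in rATB cells, 7.96 and 13.4 in buffer cells and 10.01 and 18.1 in untreated cells.

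Galectin-4, a lectin best known from gut epithelium, was the least abundant member. Lgals4 (ENSMUSG00000053964) stood at 9.09 units in rATB cells, 7.96 in buffer cells and 9.001 in untreated cells, from 143, 136 and 160 reads. Its ratio of rATB to buffer was 1.14 (interval 0.896 to 1.45), to the control 1.01 (interval 0.80 to 1.27), and no pair of libraries differed beyond counting error. At this depth a level up to 1.45 times that of buffer was within counting error. Of 8 epithelial markers Krt8, Krt18, Krt19 and Cdx2 had 0 reads in every library, and the summed level of the list was 16.8 units in rATB cells, 21.1 in buffer cells and 20.9 in untreated cells, most of it from Cdh1. Reads of Lgals4 can be shared with Lgals6, a near-identical copy that some mouse strains carry and that was not analysed here.

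**Figure D2:**
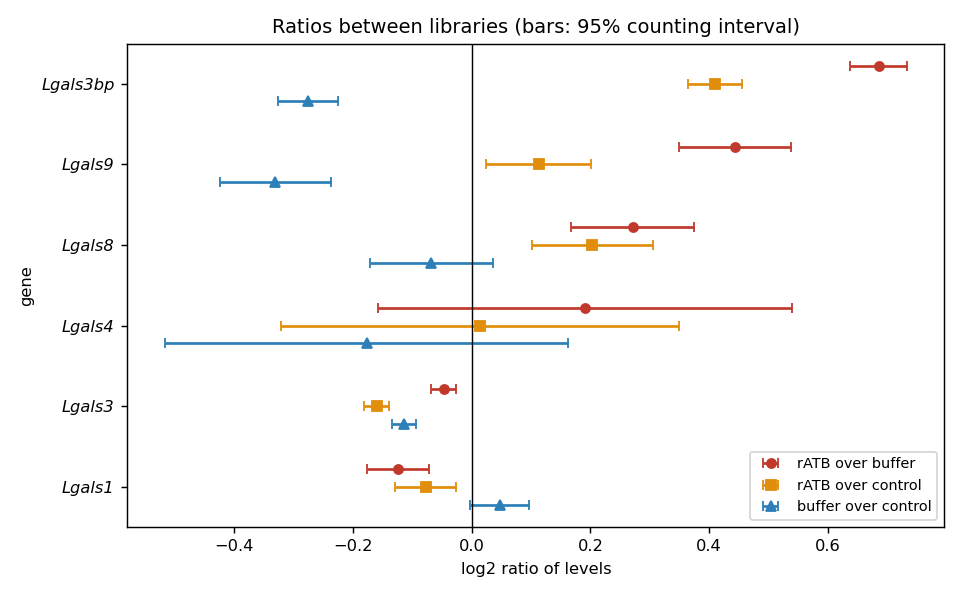
Log2 ratio of levels (horizontal axis) for each galectin gene (vertical axis), as rATB over buffer (circles), rATB over control (squares) and buffer over control (triangles), with exact 95% counting intervals. For Lgals3bp and Lgals9 the triangles lie left of 0 and the circles right of it, and for Lgals4 all 3 intervals hold 0.

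By counting error alone, 3 of the 6 genes were higher in rATB cells than in both other libraries (Lgals3bp, Lgals9 and Lgals8) and 2 were lower than in both (Lgals3 and Lgals1). Over all 12559 genes these shares were 11.4% and 15.4%. Without regard to counting error, the rATB library was highest for 4 of the 6 and lowest for 2, beside 33.2% and 44.1% of all genes. Deeply counted genes pass this rule with smaller differences, and 5 of the 6 had at least 1441 reads in every library. Both comparisons share the rATB library. The buffer library was the lowest of the 3 beyond counting error for Lgals3bp and Lgals9, a position held by 7.81% of all genes.

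**Figure D3:**
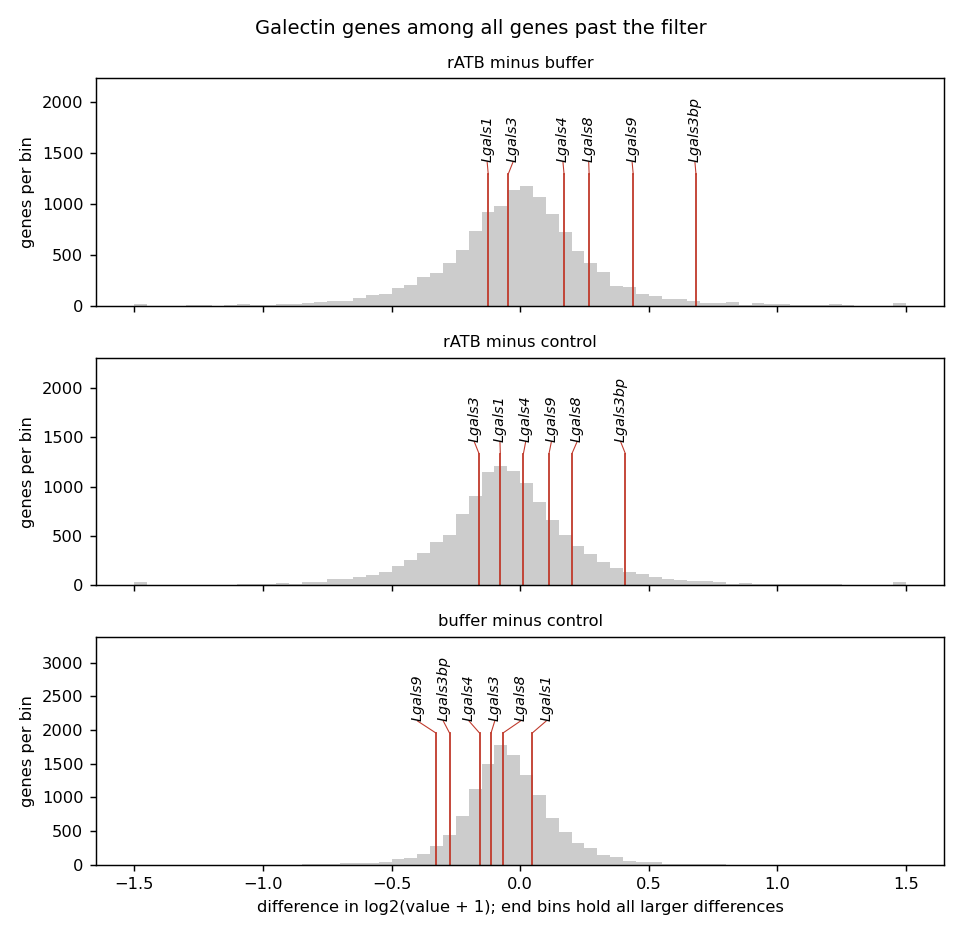
Number of genes per bin of 0.05 (vertical axis) by difference in log2(value + 1) (horizontal axis) over the 12559 genes past the filter, for rATB minus buffer, rATB minus control and buffer minus control, with red lines at the galectin genes. Lgals3bp lies at 0.68 in the upper panel, above the bulk of genes, and the galectin genes lie between -0.16 and 0.41 in the middle panel.

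Ratios between genes within a library do not depend on how libraries are scaled. For every 100 reads of Lgals3 there were 25.3 reads of Lgals3bp in rATB cells (interval 24.7 to 25.9), 15.2 in buffer cells (interval 14.8 to 15.7) and 17.1 in untreated cells (interval 16.6 to 17.5). Those of Lgals9 numbered 6.03 in rATB cells, 4.29 in buffer cells and 4.99 in untreated cells per 100 reads of Lgals3. Lgals8 gave 4.74, 3.81 and 3.69 in the same libraries, and Lgals1 gave 16.4, 17.3 and 15.5. The binding protein, galectin-9 and galectin-8 thus took their largest share relative to galectin-3 in the rATB library, and galectin-1 took its largest share in buffer. Lgals3 made up 65.4% of the reads of the 6 genes in rATB cells, 70.9% in buffer cells and 70.6% in untreated cells. The 6 genes together held 0.340% of all reads in rATB cells, 0.331% in buffer cells and 0.339% in untreated cells, or 3281, 3125 and 3395 units with the deposited scaling.

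Other genes of the family were silent or low. Lgals7, known from stratified epithelium, and Lgals12, known from fat cells, had 0 reads in all 3 libraries. Lgals2 had 1 read, in the rATB library, and Grifin, a lens galectin-related gene, had 1 read, in the buffer library. Lgalsl, a galectin-related gene listed in the table as 1110067D22Rik (ENSMUSG00000042363), stood at 5.02 units in rATB cells, 7.55 in buffer cells and 4.73 in untreated cells, from 79, 129 and 84 reads. Here buffer stood alone on the high side, at 1.60 times the control (interval 1.21 to 2.13), while rATB was 0.665 times buffer (interval 0.496 to 0.886).

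The genes of enzymes that build galectin ligands lay on both sides of even. Of 18 genes for N-glycan branching, galactose addition, core O-glycans and sialic acid caps, 17 passed the filter, and 0 of them met the 2-fold rule against buffer or control, beside 1.57% and 1.83% of all genes. The median difference from buffer was 0.13 and that from the control -0.05, and the rATB library was highest in 6 and lowest in 7, beside 33.2% and 44.1% of all genes. These counts are near the shares of all genes and are no result about the list. B4galt1, the galactosyltransferase that makes the N-acetyllactosamine galectins bind, stood at 155 units in rATB cells, 109 in buffer cells and 114 in untreated cells, and the rATB to buffer ratio was 1.42 (interval 1.34 to 1.51). The other 3 genes that the naming rule took from this list for the size of their rATB difference act in core O-glycan synthesis. C1galt1 was at 19.5 units in rATB cells, 23.7 in buffer cells and 23.5 in untreated cells, its chaperone gene C1galt1c1 at 20.97, 24.9 and 26.0, and Gcnt1, the core branching enzyme whose product galectin-1 favours on T cells, at 95.02, 116 and 110.3. Relative to buffer these were 0.823 (interval 0.707 to 0.957), 0.843 (interval 0.728 to 0.9755) and 0.82 (interval 0.766 to 0.877).

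**Figure D4:**
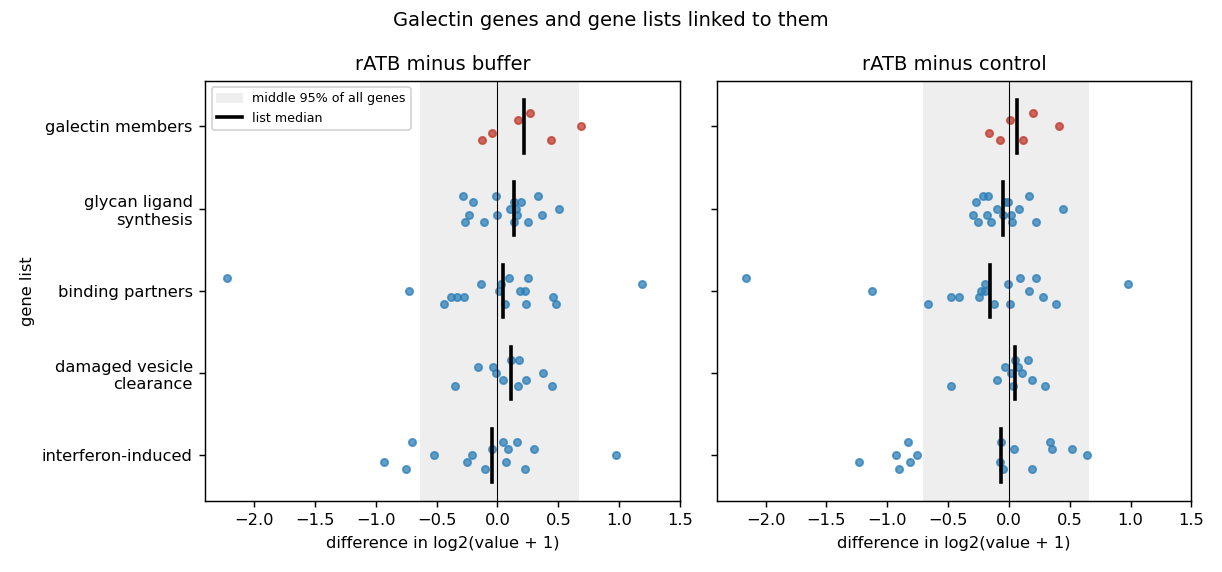
Difference in log2(value + 1) (horizontal axis) for each gene past the filter in the galectin genes and 4 lists linked to them (vertical axis), for rATB minus buffer and rATB minus control, with the list median as a black bar and the middle 95% of all 12559 genes shaded. The galectin genes reach from -0.12 to 0.68 against buffer, and the binding partners reach from -2.22 to 1.18.

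Glycoproteins and receptors that galectins are known to bind reached from -2.22 to 1.18 against buffer on the log2 scale, ends set by Tfrc and Tnfrsf9. A list of 18 genes can reach further than the 6 galectin genes by number alone. Of 20 listed, 18 passed the filter, with 7 highest and 7 lowest in rATB cells, beside 33.2% and 44.1% of all genes. These 2 counts are near the shares of all genes and are no result about the list. Against buffer 1 was higher and 1 lower by the 2-fold rule, and against the control 0 were higher and 2 lower, beside 0.9% of all genes higher and 0.669% lower against buffer, and 0.948% higher and 0.884% lower against the control. Tnfrsf9, the co-stimulatory receptor 4-1BB that galectin-9 binds, was the higher one, 1.18 above buffer and 0.98 above the control on the log2 scale. Tfrc, the transferrin receptor, was lower by the rule against both, with differences of -2.22 and -2.16. Spn, which encodes CD43, was at 39.4 units in rATB cells, 66.05 in buffer cells and 87.3 in untreated cells, and met the rule against the control at -1.13. Sema4d was at 226 units in rATB cells, 307 in buffer cells and 358 in untreated cells, and Ptprc, the CD45 gene, was lowest in rATB cells as well, at 415 units against 540 in buffer cells and 576 in untreated cells. Havcr2, which encodes Tim-3, rested on 130 reads in rATB cells, 96 in buffer cells and 108 in untreated cells, and its ratio to buffer was 1.47 (interval 1.12 to 1.93). Ptprc and Havcr2 were picked for their known link to galectin-1 and galectin-9 after their values had been seen.

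Genes with the profile most like that of each member were sought by the distance between centred log2(value + 1) values over the 3 libraries, among 10350 genes averaging at least 5 units. For Lgals3bp the nearest were 1500031L02Rik and C130050O18Rik, at distances of 0.0286 and 0.0289, and 39 genes lay within 0.1. C130050O18Rik stood at 51.9 units in rATB cells, 32.7 in buffer cells and 39.9 in untreated cells. For Lgals9 the nearest were Adora3, an adenosine receptor gene, and Pard6a, a cell polarity gene, with 152 genes within 0.1. Rfc2 and Gm7535 were nearest to Lgals8, Fam53a and Zfp598 to Lgals4, Naip5 and Cdan1 to Lgals1, and Poli and Commd8 to Lgals3. Within 0.1 there were 943 genes for Lgals8, 1909 for Lgals4, 2190 for Lgals1 and 2668 for Lgals3. With 3 points per profile such likeness is common, and it is given as a description.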

How the data were processed

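Per the labels' protocols, RNA was extracted with TRIzol, and libraries were made with a TruSeq version 2 kit and sequenced as 150-bp pairs. The aligner was TopHat2 2.0.13, per the submitters' processing notes. The notes name GRCh37, a human build, while identifiers are mouse Ensembl ones, so no gene coordinates are taken from the files. Counter, annotation and scaling: not given in the sources used here. Per the file headers, the deposited table gives log2 values by the authors for 37991 gene rows, with a spreadsheet error for the log2 of 0. Turned linear, 100% of values were whole multiples of the smallest value of their column, within 1e-06, so read counts were recovered by dividing by that factor (1.13 for rATB, 1.04 for buffer, 1 for the control).

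The recovered total was 15203139 to 17776492 reads. Rows with one symbol were summed, after 25 damaged symbols were restored by identifier. Genes averaging at least 1 unit were kept (12559). The 2-fold rule used a pseudocount of 1 unit, which understates the change of low genes. Intervals of ratios are exact conditional (Clopper-Pearson) ones, those of levels exact Poisson ones, and they cover counting error only. They take each read as independent. PCR reads without molecular identifiers are not independent molecules, so the intervals may be too narrow even for counting error. The analysis used Python 3.11.15 and was tested on simulated data. Of 149 symbols in 6 gene lists and 9 marker lists, 148 were found, 4 of them through their identifier. Windows of 75 bases from GENCODE M21 transcripts showed 0 shared with other genes for 5 members and 2.53% for Lgals8. The genes that shared windows with Lgals8 were Heatr1 and AC107765.2, and the level of AC107765.2 is not given here. A copy missing from those transcripts, as Lgals6 may be, would not be seen this way.

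The members and lists were chosen with earlier results of these data known. Named from each list were up to 4 genes averaging at least 5 units, by the smaller of the rATB differences from buffer and control where both had one sign. Alternatives were other pseudocounts, filters, scalings and a lower fold rule.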

Additional observations from a re-analysis of the deposited data

How the results depend on the processing

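The count of 0 galectin genes past the 2-fold rule held in each pair of libraries with pseudocounts of 0.1 and 5 units, no filter, a filter at 5 units, and both other scalings. With a rule of 0.5 on the log2 scale it was 1 of 6 for rATB against buffer, Lgals3bp, where 9.18% of all genes passed, and 0 for the other pairs. The median difference over the 6 genes ranged from 0.19 to 0.23 for rATB against buffer, from 0.06 to 0.12 for rATB against control and from -0.14 to -0.06 for buffer against control over these alternatives. Leaving out Lgals3bp, an alternative chosen after seeing the data, gave 0.17, 0.01 and -0.11. The other scalings moved all log2 differences by at most 0.0847. Under them the rATB library stayed above both others beyond counting error for Lgals3bp, Lgals9 and Lgals8, and below both for Lgals3. For Lgals1 against the control the interval then held 1, at ratios of 0.981 and 0.985. No paired analysis was possible because each group is 1 library. For the same reason no library could be left out of a comparison. Depth limits Lgals4 most, with 136 to 160 reads per library.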

Other observations

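Galectin-3, galectin-8 and galectin-9 mark damaged endosomes and lysosomes for clearance, and genes of that process were looked at as well. Of 12 listed, 11 passed the filter and 0 met the 2-fold rule against buffer or the control, beside 1.57% and 1.83% of all genes. The median difference was 0.11 from buffer and 0.05 from the control, with the rATB library highest in 6 and lowest in 2, beside 33.2% and 44.1% of all genes. Tecpr1, which takes part in autophagosome maturation, stood at 165 units in rATB cells, 121 in buffer cells and 134 in untreated cells, and the rATB to buffer ratio was 1.37 (interval 1.29 to 1.45). Tax1bp1, an autophagy receptor, was at 228 units in rATB cells, 193 in buffer cells and 199 in untreated cells. Map1lc3b, an LC3 gene, stood at 118 units in rATB cells, 90.99 in buffer cells and 109 in untreated cells, the order seen for Lgals9. A link of Map1lc3b to the galectin levels was not tested. Tfeb, the transcription factor of lysosome genes, was lowest in rATB cells, at 32.9 units against 42.1 in buffer cells and 46.1 in untreated cells. Calcoco2, whose human product is a receptor for galectin-8, had 0 reads in every library.

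Of the other marker lists, neutrophil genes summed to 43.98 units in rATB cells, 44.4 in buffer cells and 57.6 in untreated cells. Members of that list ran in both directions. S100a8 was at 27.1, 24.9 and 22.6 units in the same libraries, S100a9 at 9.60, 10.5 and 17.1, and Ngp at 2.92, 4.98 and 11.2. Mast cell and basophil genes summed to 73.6, 70.4 and 67.0 units, nearly all from Kit and Gata2, and B cell genes to 63.4, 50.4 and 57.3, nearly all from Cd22. T and NK cell genes summed to 4.89, 7.67 and 7.26 units, stromal genes to 6.42, 5.56 and 7.03, and erythroid genes to 0.636, 0.468 and 0.169. Their part in the galectin levels was not tested.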
